A study of Mus musculus with 12 samples.

Results

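The mammalian circadian clock is a feedback loop of transcription factors. ARNTL (also called BMAL1) and CLOCK bind together to E-box sequences and switch on the Period and Cryptochrome genes, whose proteins return to the nucleus and block that pair. A second loop runs through the nuclear receptors NR1D1 and NR1D2 (REV-ERB alpha and beta), which repress Arntl, and output factors such as DBP carry the rhythm to other genes. In mouse skin the loop runs in keratinocytes, fibroblasts and hair follicles, and many of its transcripts rise and fall over the day. The genes described here are its core members, Arntl, Clock, Per1, Per2, Per3, Cry1, Cry2, Nr1d1, Nr1d2 and Dbp. They were chosen by symbol, all 10 were found among 34303 gene symbols, and all 10 passed the filter on low values.

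RNA was sequenced from 12 libraries of C57Bl6 mice. TAp63-/- cutaneous squamous cell carcinoma (cSCC, n = 4) and wild-type (WT) cSCC (n = 2) came from mice older than 35 weeks after chronic ultraviolet radiation (UVR, 2.5 kJ/m2, 3 times a week). TAp63-/- skin (n = 3) and WT skin (n = 3) was untreated dorsal skin of shaved mice aged 4 weeks. TAp63 is the set of p63 isoforms with the N-terminal transactivation domain, which TAp63-/- mice lack; the labels give neither the construction of the allele nor the hour at which tissue was collected, so the phase of the clock in each library is unknown. Levels are in FPKM, a unit that divides fragments by transcript length and library size, on which genes can be compared per length.

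The level of Trp63, the targeted gene, was 84.5 to 111.3 FPKM in TAp63-/- skin and 100.4 to 119.4 FPKM in WT skin, and it sums all p63 isoforms, so it does not check the deletion. Summed levels of 4 keratinocyte keratins were 8349.9 to 23287.8 FPKM in cSCC and 5176.6 to 9233.4 FPKM in skin. Of these, Krt14 and Krt5 rose and Krt10, a keratin of differentiating cells, fell in TAp63-/- tumours (log2 change -2.75, adjusted p = 0.0109 by limma), and Krt14 rose in WT tumours. Krt10 had -0.84 in WT tumours (adjusted p = 0.522 by limma) and did not pass. The remaining keratin, Krt1, passed in neither genotype. By limma it had 0.1 (adjusted p = 0.921) in TAp63-/- and 1.91 (adjusted p = 0.101) in WT tumours. The 9 skeletal muscle markers used summed to 54.1 to 618.6 FPKM in cSCC and 5856.0 to 10529.1 FPKM in skin, and all 9 fell in both tumour-skin comparisons. Of 5 fibroblast markers, 5 fell in TAp63-/- and 3 in WT tumours, with sums of 518.7 to 1490.3 FPKM in cSCC and 1737.6 to 5062.8 FPKM in skin. Of 5 adipocyte markers, 4 fell in TAp63-/- and 3 in WT tumours, while their sums, 52.6 to 2651.9 FPKM in cSCC and 427.2 to 2523.9 FPKM in skin, overlapped. No marker in these lists was at 0 throughout a group, and the part of these tissues in the results was not tested. Xist, which is expressed from the inactive X chromosome of females, had 21.5 to 83.6 FPKM in 5 tumours, 0.173 FPKM in TAp63-/- cSCC replicate 1 and at most 0.0252 FPKM in skin; with 4 Y-linked genes it read 5 tumours as female and the other 7 libraries as male. Tumour and skin thus differ in age, radiation, tissue makeup and, for all but 1 tumour, sex, and the parts of these cannot be told apart. Sample titles also begin with LM for every tumour and with Su for every skin library, and the labels do not say what these letters mark. Any difference in handling that went with them cannot be told apart from tissue. In such bulk tissue, fewer cells of a type and less RNA per cell cannot be told apart either.

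The start-site regions of 9 members were matched in RefSeq on GRCm38.p6, as 13 windows running from 250 bases before to 50 bases after a start; Per2 was not matched. Each window was searched on both strands for CACGTG, the palindromic E-box, for TTATGTAA (TTACATAA on the other strand), a D-box of the kind DBP binds, and for TAGGTCA, which reads TGACCTA on the other strand, the core of the element that NR1D1 and the receptor RORA share. These letters stood in 7.15%, 0.938% and 2.61% of all 32851 RefSeq windows of that length. Upstream of a RefSeq start they were found in Cry1, Per1 and Per3, for which 240 bases ending shortly before that start are shown with the motif in capitals, so that the letters can be seen in the genes that the loop acts on. The Cry1 stretch is chr10:85185065-85185304 on the minus strand, with the E-box at position -60 from the start. The Per1 stretch is chr11:69098699-69098938 on the plus strand, with the E-box at position -166 from a RefSeq start that lies inside the gene as the authors' file bounds it, downstream of the file's own start; the stretch lies in no annotated exon. The Per3 stretch is chr4:151044676-151044915 on the minus strand, with D-boxes at positions -205 and -158.
Cry1: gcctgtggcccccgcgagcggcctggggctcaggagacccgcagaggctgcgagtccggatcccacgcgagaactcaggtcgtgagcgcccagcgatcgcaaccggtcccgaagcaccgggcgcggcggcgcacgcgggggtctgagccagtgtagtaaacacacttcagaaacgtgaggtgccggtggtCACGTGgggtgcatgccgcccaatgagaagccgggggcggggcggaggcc
Per1: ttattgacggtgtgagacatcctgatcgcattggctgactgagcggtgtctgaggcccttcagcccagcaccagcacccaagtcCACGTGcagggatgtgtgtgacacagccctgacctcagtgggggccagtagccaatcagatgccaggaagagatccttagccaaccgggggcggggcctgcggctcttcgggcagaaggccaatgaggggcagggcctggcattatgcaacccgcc
Per3: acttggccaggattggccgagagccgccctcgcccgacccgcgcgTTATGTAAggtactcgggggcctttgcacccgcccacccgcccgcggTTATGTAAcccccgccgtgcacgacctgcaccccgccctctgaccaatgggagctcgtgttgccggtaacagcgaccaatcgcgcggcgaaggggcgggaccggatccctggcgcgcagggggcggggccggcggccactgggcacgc
The receptor element TAGGTCA occurred 31 bases after 1 of the Arntl starts. These matches describe letters only.

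The tumours held less RNA of Dbp and Cry2 and more of Clock than skin in both genotypes. Dbp showed the largest change of the called members: on the scale of FPKM + 1 it was 2.6-fold lower in TAp63-/- and 3.71-fold lower in WT tumours. Its mean level was 4.1 FPKM in TAp63-/- cSCC and 12.9 FPKM in TAp63-/- skin. In WT mice it was 2.75 FPKM in cSCC and 13.0 FPKM in skin. In each genotype the change was tested with limma on log2(FPKM + 1), fitted on all 12 libraries, with p-values adjusted over 14752 genes and a call at an adjusted p below 0.05. In TAp63-/- cSCC against TAp63-/- skin 3 of the 10 members passed, 1 higher and 2 lower, beside 27.2% of all genes (13% higher, 14.2% lower). In WT cSCC against WT skin 4 passed, 2 higher and 2 lower, beside 11.4% of all genes (4.66% higher, 6.77% lower). The median log2 change of the members was -0.373 and -0.453, beside 0.096 and 0.041 for all genes tested in the TAp63-/- and WT comparisons. The share of members called in TAp63-/- tumours was therefore near that of all genes.

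**Figure D1:**
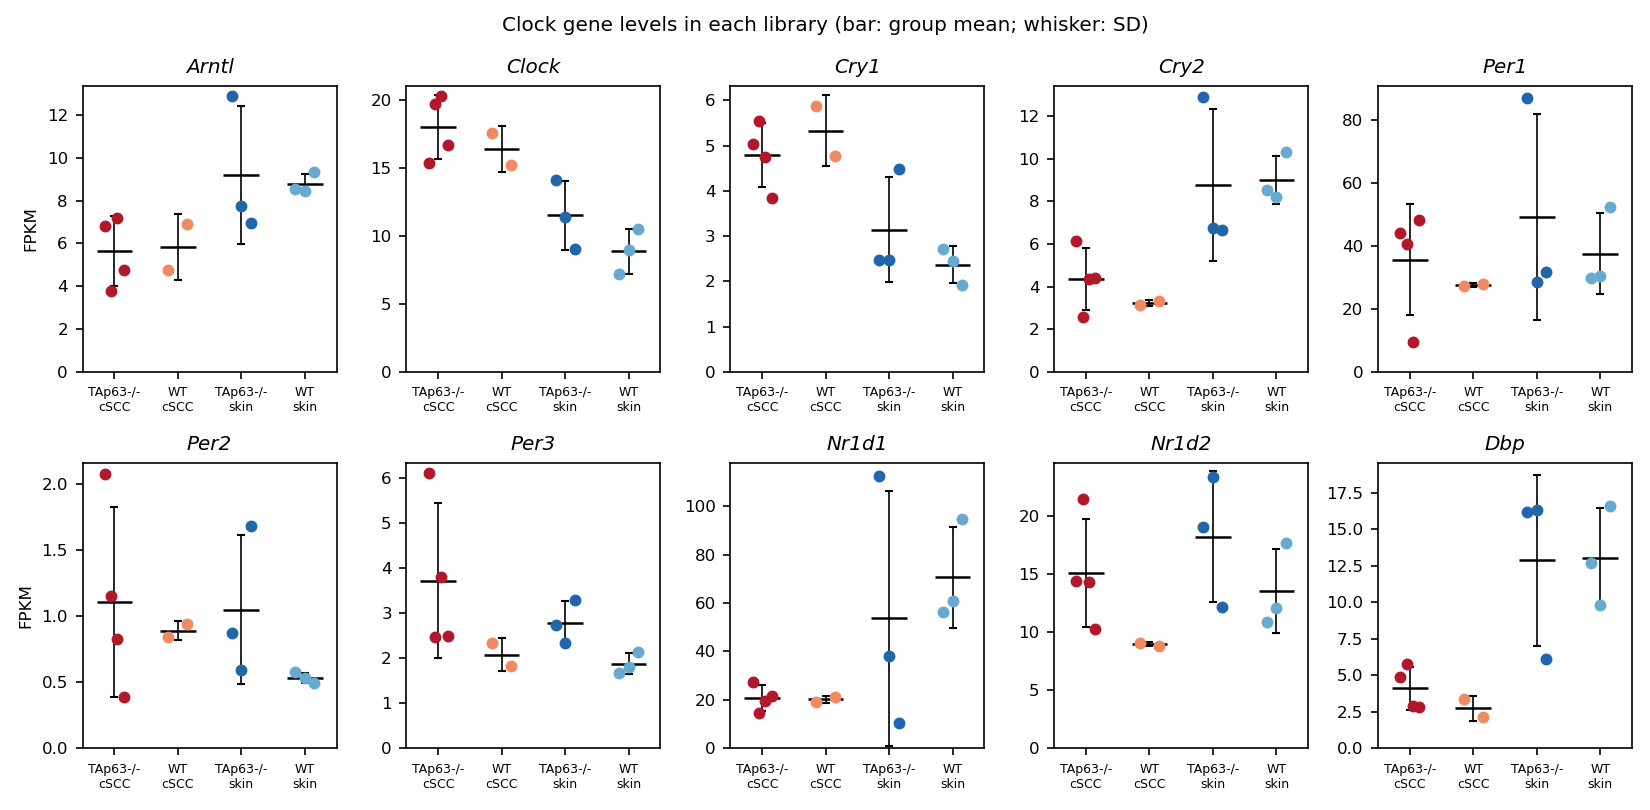
Level (FPKM) of the 10 clock genes in each library; points are libraries, bars group means and whiskers SD (n = 4, 2, 3 and 3 from left to right). The 6 tumours all lie above the 6 skin libraries for Clock (15.2 to 20.3 against 7.18 to 14.1 FPKM) and all below them for Cry2 and Dbp.

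Arntl and Clock encode the activating pair. Clock (ENSMUSG00000029238, chromosome 5, 76212177 to 76304548 in mm10) had 15.4, 19.7, 20.3 and 16.7 FPKM in TAp63-/- cSCC, 17.6 and 15.2 in WT cSCC, 14.1, 11.4 and 9.06 in TAp63-/- skin and 7.18, 8.95 and 10.5 in WT skin. Every tumour was above every skin library. Clock rose in TAp63-/- tumours (log2 change 0.62, SE 0.19, adjusted p = 0.0339) and in WT tumours (0.83, SE 0.23, adjusted p = 0.0405).

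Arntl (ENSMUSG00000055116, chromosome 7, 113207465 to 113314122) had 6.81, 3.78, 7.2 and 4.76 FPKM in TAp63-/- cSCC, 4.75 and 6.92 in WT cSCC, 12.9, 7.75 and 6.95 in TAp63-/- skin and 8.54, 8.46 and 9.32 in WT skin. Tumours were mostly lower than skin, but the ranges met at about 7 FPKM in the TAp63-/- groups. Its log2 change was -0.61 (SE 0.25, adjusted p = 0.0941) in TAp63-/- and -0.53 (SE 0.3, adjusted p = 0.272) in WT tumours, and neither passed. The pair of genes thus had opposite signs, and only Clock passed within a genotype.

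The Cryptochromes, which repress the activating pair, also had opposite signs. Cry2 (ENSMUSG00000068742, chromosome 2, 92403646 to 92434043) had 6.13, 2.56, 4.35 and 4.4 FPKM in TAp63-/- cSCC, 3.13 and 3.34 in WT cSCC, 12.9, 6.76 and 6.66 in TAp63-/- skin and 8.55, 8.19 and 10.3 in WT skin. No tumour reached the lowest skin library. A transcript on the opposite strand, D930015M05Rik, shares 295 of the 6320 exon bases of Cry2 and had at most 0.325 FPKM. Cry2 fell by 0.85 (SE 0.27, adjusted p = 0.0364) in TAp63-/- and by 1.23 (SE 0.32, adjusted p = 0.0318) in WT tumours on the log2 scale.

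Cry1 (ENSMUSG00000020038, chromosome 10, 85131702 to 85185054) had 5.03, 5.55, 4.74 and 3.85 FPKM in TAp63-/- cSCC, 5.88 and 4.77 in WT cSCC, 2.48, 2.47 and 4.48 in TAp63-/- skin and 2.72, 2.46 and 1.93 in WT skin. The tumours were above all skin libraries but TAp63-/- skin replicate 3, whose 4.48 FPKM exceeded TAp63-/- cSCC replicate 4. Cry1 rose in WT tumours (log2 change 0.91, SE 0.25, adjusted p = 0.0378), and its change in TAp63-/- tumours was 0.51 (SE 0.21, adjusted p = 0.0896). The difference between these changes had a log2 value of -0.4 (SE 0.32, adjusted p = 1).

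The Period genes encode the partners of the Cryptochromes, and none of them passed in either genotype. Per1 (ENSMUSG00000020893, chromosome 11, 69095217 to 69109960) was the most abundant, with 44.0, 40.4, 9.49 and 48.1 FPKM in TAp63-/- cSCC, 27.1 and 27.9 in WT cSCC, 86.8, 28.6 and 31.8 in TAp63-/- skin and 29.9, 30.3 and 52.2 in WT skin. TAp63-/- cSCC replicate 3 was the lowest of all libraries and TAp63-/- skin replicate 1 the highest. Its log2 change was -0.49 (SE 0.54, adjusted p = 0.531) in TAp63-/- tumours, and it was 0.03 without that tumour and 0.01 without that skin library. In WT tumours it was -0.38 (SE 0.65, adjusted p = 0.743).

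Per2 (ENSMUSG00000055866, chromosome 1, 91415984 to 91459330) was the least abundant member, with 2.08, 1.15, 0.826 and 0.386 FPKM in TAp63-/- cSCC, 0.841 and 0.94 in WT cSCC, 0.873, 0.594 and 1.68 in TAp63-/- skin and 0.576, 0.53 and 0.496 in WT skin. WT skin was low and even, while the TAp63-/- groups were spread over most of the range. The log2 changes were 0.02 (SE 0.27, adjusted p = 0.971, with the sign changing under other settings) in TAp63-/- and 0.3 (SE 0.32, adjusted p = 0.589) in WT tumours.

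Per3 (ENSMUSG00000028957, chromosome 4, 151003652 to 151044665) had 6.11, 2.47, 3.8 and 2.48 FPKM in TAp63-/- cSCC, 2.33 and 1.82 in WT cSCC, 2.73, 2.34 and 3.29 in TAp63-/- skin and 1.68, 1.81 and 2.13 in WT skin. TAp63-/- cSCC replicate 1 stood highest for both Per2 and Per3. The log2 changes of Per3 were 0.26 (SE 0.25, adjusted p = 0.471) in TAp63-/- and 0.1 (SE 0.3, adjusted p = 0.868) in WT tumours.

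The nuclear receptor genes of the second loop had negative log2 changes, and Nr1d1 had a wide spread in skin. Nr1d1 (ENSMUSG00000020889, chromosome 11, 98767932 to 98775333) had 27.4, 14.4, 19.5 and 21.8 FPKM in TAp63-/- cSCC, 19.3 and 21.2 in WT cSCC, 112.5, 38.3 and 10.6 in TAp63-/- skin and 56.5, 60.7 and 94.7 in WT skin. The 6 tumours stayed between 14.4 and 27.4 FPKM, while TAp63-/- skin alone held both the highest and the lowest of all 12 values. The log2 change was -0.81 (SE 0.58, adjusted p = 0.329) in TAp63-/- and -1.72 (SE 0.7, adjusted p = 0.136) in WT tumours. Leaving out TAp63-/- skin replicate 3 brought it to -1.65 with an adjusted p of 0.0182, and leaving out TAp63-/- skin replicate 1 brought it to 0.0 with an adjusted p of 0.997, the extremes over the 7 omissions of a library.

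Thra, which encodes a thyroid hormone receptor and lies on the opposite strand, shares 263 of the 3077 exon bases of Nr1d1, and strand was not stated to be used in counting. Thra itself had 12.7, 12.2, 13.5 and 11.6 FPKM in TAp63-/- cSCC, 9.95 and 14.1 in WT cSCC, 34.6, 34.1 and 25.3 in TAp63-/- skin and 31.2, 34.5 and 29.8 in WT skin. It fell in both genotypes (log2 change -1.25, SE 0.17, adjusted p = 0.00041 in TAp63-/- and -1.35, SE 0.2, adjusted p = 0.00246 in WT tumours). Reads from the shared bases cannot be told apart.

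Nr1d2 (ENSMUSG00000021775, chromosome 14, 18204054 to 18239127) had 14.4, 21.5, 14.3 and 10.3 FPKM in TAp63-/- cSCC, 9.09 and 8.84 in WT cSCC, 19.1, 23.4 and 12.2 in TAp63-/- skin and 10.9, 12.1 and 17.7 in WT skin. In each tissue the highest libraries were TAp63-/- ones. Its log2 changes between tumour and skin were -0.25 (SE 0.27, adjusted p = 0.522) in TAp63-/- and -0.52 (SE 0.33, adjusted p = 0.328) in WT mice.

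Dbp encodes the D-box activator that is a direct target of the activating pair. Dbp (ENSMUSG00000059824, chromosome 7, 45705088 to 45710155) had 4.88, 5.77, 2.89 and 2.85 FPKM in TAp63-/- cSCC, 3.35 and 2.15 in WT cSCC, 16.2, 16.3 and 6.12 in TAp63-/- skin and 12.7, 9.8 and 16.6 in WT skin. All tumours were below all skin libraries, the nearest being TAp63-/- cSCC replicate 2 and TAp63-/- skin replicate 3. Dbp fell by 1.38 (SE 0.35, adjusted p = 0.0141) in TAp63-/- and by 1.89 (SE 0.41, adjusted p = 0.0155) in WT tumours on the log2 scale.

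Sphk2, a sphingosine kinase gene on the opposite strand, shares 539 of the 2993 exon bases of Dbp. Sphk2 had 7.23 to 16.1 FPKM in TAp63-/- cSCC and 11.6 to 13.7 FPKM in WT cSCC. In skin it had 13.5 to 20.9 FPKM in TAp63-/- and 17.4 to 21.2 FPKM in WT mice. Its log2 changes were -0.66 (adjusted p = 0.0642) in TAp63-/- and -0.6 (adjusted p = 0.2) in WT tumours, so neither passed. Averaged over genotypes, a comparison described below, Sphk2 fell (-0.63, adjusted p = 0.0224 by limma). The share of reads from either gene in the common bases was not tested.

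**Figure D2:**
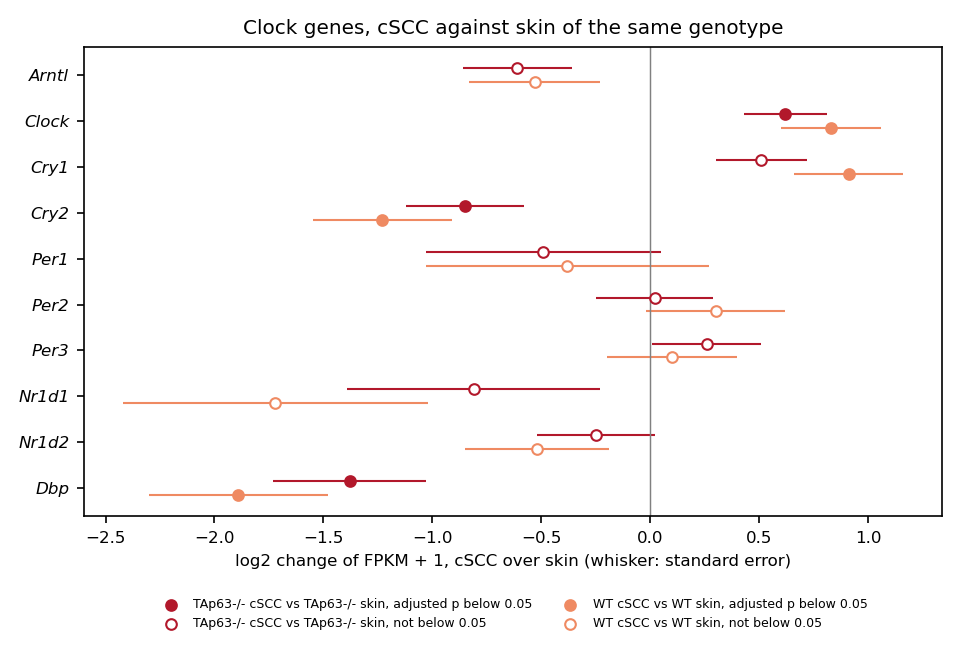
Log2 change of FPKM + 1, cSCC over skin of the same genotype, for the 10 clock genes; whiskers are standard errors and filled points have an adjusted p below 0.05. Dbp and Cry2 lie below 0 and Clock above 0 in both genotypes, while the Period genes lie within about 1 standard error of 0.

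Calls within a genotype rested on few libraries. When 1 of the 5 WT libraries was left out, 0 or 1 of the 4 WT calls remained: Dbp passed without WT skin replicate 1 or 2, and none passed without WT skin replicate 3 or either WT tumour. In TAp63-/- tumours Dbp lost its call without TAp63-/- skin replicate 1 or 2 (adjusted p = 0.0666 and 0.0632, the highest over its alternatives). Cry2 lost it without TAp63-/- cSCC replicate 2, 3 or 4 or TAp63-/- skin replicate 1 (adjusted p up to 0.155), and also with no filter on low values (0.0604) or with only the 7 libraries of the comparison fitted (0.0979). Clock kept it without TAp63-/- cSCC replicate 1 or TAp63-/- skin replicate 1 but in no other of the 7 omissions (adjusted p up to 0.13).

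The mean of both tumour-skin changes, a comparison added after the data had been seen, used all 12 libraries at once. It called 6 of the 10 members, 2 higher and 4 lower, beside 37.5% of all genes (19.1% higher, 18.4% lower). Dbp (log2 change -1.64, SE 0.27, adjusted p = 0.000973), Cry2 (-1.04, SE 0.21, adjusted p = 0.00297), Clock (0.72, SE 0.15, adjusted p = 0.00349) and Cry1 (0.71, SE 0.16, adjusted p = 0.00592) kept their calls whichever of the 12 libraries was left out. Over those omissions the highest adjusted p was 0.0051 for Dbp, 0.0148 for Cry2, 0.0195 for Clock and 0.0309 for Cry1. Arntl (-0.57, SE 0.19, adjusted p = 0.0397) and Nr1d1 (-1.26, SE 0.45, adjusted p = 0.0487) also fell. Arntl kept its call in 4 of the 12 omissions (adjusted p up to 0.164), and Nr1d1 kept it without TAp63-/- skin replicate 3 and in none of the other 11 (adjusted p up to 0.132). Nr1d2 (-0.39, adjusted p = 0.175), Per1 (-0.44, adjusted p = 0.441), Per3 (0.18, adjusted p = 0.503) and Per2 (0.16, adjusted p = 0.586) did not pass.

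The ranges of the libraries did not overlap for Clock, Cry2 and Dbp in the TAp63-/- comparison, beside 34% of all genes, and for every member but Per3 in the WT comparison, beside 52.8%. The ranges of the 6 tumours and the 6 skin libraries did not overlap for Clock, Cry2 and Dbp, 3 of 10 members, beside 21.8% of all genes. In the single male tumour, TAp63-/- cSCC replicate 1, Clock had 15.4, Cry2 6.13 and Dbp 4.88 FPKM, each outside the range of the skin libraries, which were male, and on the side of the other tumours. That tumour had the highest Cry2 of the 6, the Clock level next to the lowest and the Dbp level next to the highest. Among the tumours, each of these lay toward the skin levels. The part of sex in the other tumours was not tested.

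The genotype comparisons asked whether loss of TAp63 went with other clock gene levels. In TAp63-/- skin against WT skin, limma on the 6 skin libraries called 0 of the 10 members, beside 0.0203% of all genes (3 genes). Of the 14752 genes tested, 738 had an unadjusted p below 0.05, about the share that this threshold passes by chance. Per3 had the smallest p of the members, with 2.73, 2.34 and 3.29 FPKM in TAp63-/- skin and 1.68, 1.81 and 2.13 FPKM in WT skin (log2 change 0.39, SE 0.14, unadjusted p = 0.0296, adjusted p = 0.923). The ranges did not overlap for Per2 and Per3, both higher in TAp63-/- skin, 2 of 10 members beside 10.6% of all genes. Nr1d1 had the largest log2 change, -0.91 (SE 0.81, adjusted p = 0.923), and it ran from -1.71 to -0.06 when 1 library was left out.

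In TAp63-/- cSCC against WT cSCC, limma on the 6 tumour libraries called 0 of the 10 members, beside 0% of all genes. Of the 14752 genes tested, 419 had an unadjusted p below 0.05, fewer than this threshold passes by chance. Nr1d2 had 14.4, 21.5, 14.3 and 10.3 FPKM in TAp63-/- and 9.09 and 8.84 FPKM in WT tumours (log2 change 0.65, SE 0.31, adjusted p = 1). The ranges did not overlap for Nr1d2 and Per3, both higher in TAp63-/- tumours, 2 of 10 members beside 9.85% of all genes. Both WT tumours read as female, while TAp63-/- cSCC replicate 1 read as male. That male tumour had the highest Per3, 6.11 FPKM against 1.82 to 3.8 FPKM in the other tumours. The part of sex in the genotype comparison was not tested. Per3 had a log2 change of 0.56 (SE 0.37, adjusted p = 1) in tumours. The genotype by tissue interaction called 0 of 10 members, beside 0.0271% of all genes (4 genes). It had 444 genes with an unadjusted p below 0.05, also fewer than that threshold passes by chance.

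The SD over 3 libraries was larger in TAp63-/- skin than in WT skin for all 10 members, beside 69.2% of all 14752 genes tested, for example 3.21 against 0.473 FPKM for Arntl and 52.7 against 20.9 FPKM for Nr1d1, and the spread itself was not tested. TAp63-/- skin replicate 3 was the lowest of the 6 for Arntl, Cry2, Nr1d1 and Dbp and the highest for Cry1, Per2 and Per3. TAp63-/- skin replicate 1 was the highest for Arntl, Clock, Per1, Cry2 and Nr1d1 and the lowest for none. On the log2(FPKM + 1) scale, Nr1d1 deviated from the mean of the 6 libraries by -2.14 in TAp63-/- skin replicate 3, by 1.15 in TAp63-/- skin replicate 1 and by 0.91 in WT skin replicate 3; the other TAp63-/- library had -0.38 and WT skin replicates 1 and 2 had 0.17 and 0.28. Dbp deviated by -0.90, 0.37 and 0.40 in the first 3 of these. The hair markers summed to 12.7, 1242.2 and 3659.1 FPKM in TAp63-/- skin replicates 1 to 3 and to 4729.3, 2640.2 and 411.7 FPKM in WT skin replicates 1 to 3. Over the same replicates in order, Nr1d1 had 112.5, 38.3 and 10.6 FPKM in TAp63-/- skin and 56.5, 60.7 and 94.7 FPKM in WT skin. The muscle markers summed to 10529.1, 6758.0 and 7513.5 FPKM in TAp63-/- skin and to 6560.7, 7007.3 and 5856.0 FPKM in WT skin. The part of these tissues, and of the hour of collection, in the spread was not tested.

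**Figure D3:**
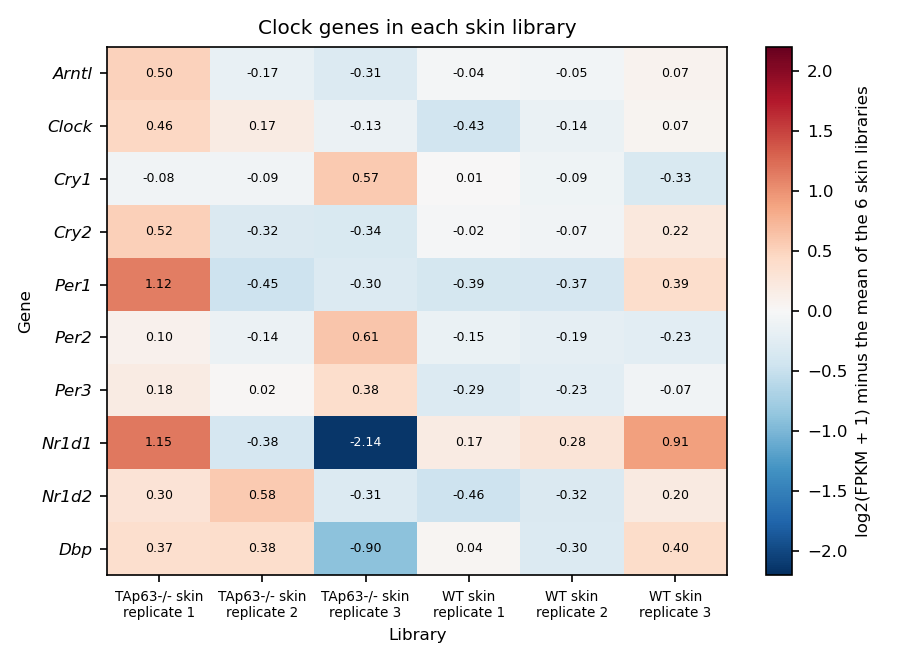
Deviation of each clock gene from its mean over the 6 skin libraries, on the log2(FPKM + 1) scale, with TAp63-/- libraries on the left and WT libraries on the right. TAp63-/- skin replicate 3 is the 1 library with Nr1d1 (-2.14) and Dbp (-0.90) low and Cry1 (0.57), Per2 (0.61) and Per3 (0.38) high.

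Arntl was set against each other member over the 6 libraries of a tissue, 18 pairs in all, with two-sided exact permutation tests whose smallest possible p is 0.00278. None of the 18 had an adjusted p below 0.05, and 2 had an unadjusted p below it. Even at the smallest possible p, 1 pair alone among 18 has an adjusted p of 0.05. A single pair thus could not pass whatever its r, and the absence of calls decides nothing about it. In skin Arntl and Cry2 had r = 0.964 (exact p = 0.00278, adjusted 0.05) and rho = 1.0 (exact p = 0.00278, adjusted 0.05), with r = 0.998 after the 2 libraries farthest from the median of Arntl were left out. Arntl and Nr1d1 had r = 0.82 (exact p = 0.00556, adjusted 0.05) and rho = 0.943 (exact p = 0.0167, adjusted 0.15), with r = 0.991 after the same step. In cSCC the values were r = 0.63 for Cry2 (exact p = 0.158, adjusted 0.406) and 0.671 for Nr1d1 (exact p = 0.158, adjusted 0.406). Each genotype holds too few libraries for a value of its own.

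Genes with a like pattern were ranked by Pearson's r over the 12 libraries after each group's mean log2(FPKM + 1) was subtracted, among 9092 genes of at least 5 FPKM on average. This describes deviations within groups over libraries whose depth is unknown, and carries no test. For Dbp the highest values were Casp4 (0.909), Cdk19 (0.901), Mlxip (0.898), Tmem55b (0.896), Sh2b3 (0.892) and Pcolce2 (0.887), and the lowest Alg14 (-0.916), Cox17 (-0.912), Rangap1 (-0.897), Ncbp1 (-0.888), Tmem48 (-0.888) and Fbxl19 (-0.888). Among clock genes, Dbp stood nearest to Bhlhe41 (0.832) and Nr1d2 (0.827), followed by Tef (0.695) and Nr1d1 (0.639), and farthest from Aqp3 (-0.724), Nfil3 (-0.588) and Csnk1d (-0.578). Tef and Hlf (0.255) encode D-box activators of the same family as DBP, and Nfil3 a repressor at D-boxes. For Arntl the highest were Pcnx (0.959), Kif21a (0.935), Arl4d (0.933), Adm (0.932), Phyhd1 (0.929) and Ppp1r12b (0.927), and the lowest Sox4 (-0.982), Basp1 (-0.973), Tfdp1 (-0.966), Psip1 (-0.963), Adprh (-0.945) and Arg2 (-0.943). Among the members Cry2 (0.852) and Nr1d1 (0.71) were nearest to Arntl.

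A list of 28 further clock genes, of which 27 were tested, covered partners of the core loop, modifiers of clock proteins and output genes. In TAp63-/- cSCC against TAp63-/- skin 4 of the 27 rose and 3 fell, beside 13% and 14.2% of all genes. In WT cSCC against WT skin 2 rose and 1 fell, beside 4.66% and 6.77%. The medians were -0.042 in TAp63-/- and -0.151 in WT tumours.

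Among 9 tested partners, Rora encodes a receptor that activates Arntl at the element where NR1D1 represses it. Rora had 20.4, 11.4, 10.4 and 16.3 FPKM in TAp63-/- cSCC, 12.7 and 22.3 in WT cSCC, 63.4, 36.5 and 43.7 in TAp63-/- skin and 27.2, 36.9 and 51.7 in WT skin. Every tumour was below every skin library. Rora fell in TAp63-/- tumours (log2 change -1.65, adjusted p = 0.00309), a call kept with any 1 library left out, and had -1.1 (adjusted p = 0.0807) in WT tumours.

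Bhlhe40 and Bhlhe41 (DEC1 and DEC2) encode related repressors that compete at E-boxes, and they had opposite signs. Bhlhe41 had 3.72, 4.06, 2.25 and 2.02 FPKM in TAp63-/- cSCC, 2.64 and 1.87 in WT cSCC, 7.15, 11.1 and 5.01 in TAp63-/- skin and 6.32, 7.1 and 7.24 in WT skin, and fell in TAp63-/- (-1.1, adjusted p = 0.0115) and WT tumours (-1.28, adjusted p = 0.0264). Bhlhe40 had 111.5, 38.6, 28.7 and 64.9 FPKM in TAp63-/- cSCC, 41.2 and 39.6 in WT cSCC, 24.9, 22.8 and 23.3 in TAp63-/- skin and 20.6, 25.1 and 24.6 in WT skin. All tumours were above all skin libraries, and Bhlhe40 rose in TAp63-/- tumours (1.14, adjusted p = 0.0385), with 0.77 (adjusted p = 0.274) in WT tumours. Bhlhe41 lost its TAp63-/- call without TAp63-/- skin replicate 2 (adjusted p = 0.0522, the highest of its range) and its WT call in all 5 omissions, and Bhlhe40 kept its call in 3 of 7 and in 3 of 6 other settings (adjusted p up to 0.0996, with only the libraries of the comparison fitted).

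Npas2 and Arntl2 are paralogs of Clock and Arntl, and each had the sign opposite to its paralog. Npas2 had 0.405, 0.642, 0.973 and 0.287 FPKM in TAp63-/- cSCC, 0.455 and 0.794 in WT cSCC, 3.06, 1.32 and 1.0 in TAp63-/- skin and 1.85, 1.8 and 3.16 in WT skin. Its log2 change was -0.78 (adjusted p = 0.0586) in TAp63-/- and -0.99 (adjusted p = 0.0772) in WT tumours. Arntl2 did not pass within a genotype either. By limma it had 1.83 (adjusted p = 0.1) in TAp63-/- and 2.17 (adjusted p = 0.15) in WT tumours. Averaged over genotypes, Npas2 fell (-0.88, adjusted p = 0.00856), and kept that call with any 1 of the 12 libraries left out. Arntl2 ran from 4.1 to 43.5 FPKM in cSCC and from 0.874 to 5.91 FPKM in skin, and rose in the average over genotypes (2.0, adjusted p = 0.023) with 9 of 12 omissions keeping the call (adjusted p up to 0.133, without WT cSCC replicate 1).

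Of the 9 modifiers, Csnk1d, a casein kinase that phosphorylates Period proteins, rose in TAp63-/- tumours (log2 change 0.6, adjusted p = 0.0115). It had 89.2, 80.6, 93.9 and 87.3 FPKM in TAp63-/- cSCC and 57.9, 52.8 and 62.0 FPKM in TAp63-/- skin, and 77.7 and 68.8 FPKM in WT cSCC and 47.1, 57.8 and 46.4 FPKM in WT skin, with no overlap. In WT tumours it had 0.53 (adjusted p = 0.0694). Csnk1d lost its TAp63-/- call without TAp63-/- skin replicate 2 (adjusted p = 0.0505, the highest of its range).

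Of the 9 output genes, Aqp3 and Klf10 rose in both genotypes. Aqp3, a glycerol and water channel of keratinocytes, had 514.3, 398.4, 497.5 and 970.3 FPKM in TAp63-/- cSCC, 549.1 and 861.6 in WT cSCC, 57.3, 79.4 and 109.0 in TAp63-/- skin and 114.8, 98.5 and 82.4 in WT skin (log2 change 2.81, adjusted p = 0.000152 in TAp63-/- and 2.8, adjusted p = 0.00165 in WT tumours). Klf10 had 73.0, 41.7, 51.5 and 69.9 FPKM in TAp63-/- cSCC, 40.2 and 47.0 in WT cSCC, 21.2, 19.3 and 22.2 in TAp63-/- skin and 20.3, 16.0 and 19.2 in WT skin (1.42, adjusted p = 0.000598 and 1.19, adjusted p = 0.0113). Every tumour was above every skin library for both genes, and Aqp3 kept both calls with any 1 library left out. Klf9, a glucocorticoid and clock target, fell in TAp63-/- tumours (-1.28, adjusted p = 0.0274) and had -1.3 (adjusted p = 0.0854) in WT tumours, and it kept its call in 3 of 7 omissions. Klf10 kept its WT call in 3 of 5 omissions (adjusted p up to 0.057, without WT cSCC replicate 1).

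Averaged over genotypes, 7 of the 27 rose and 6 fell, beside 19.1% and 18.4% of all genes. Besides the genes above, Ciart (0.51, adjusted p = 0.0284), a repressor of the activating pair, and Timeless (0.64, adjusted p = 0.0328) rose. Tef (-0.95, adjusted p = 0.0204) and Cipc (-0.54, adjusted p = 0.0306), another inhibitor of CLOCK, fell. Calls of Ciart, Timeless and Cipc were lost without several of the libraries, among them WT skin replicate 2 for all 3, and that of Tef without WT cSCC replicate 2 or WT skin replicate 3. In both genotype comparisons and in the interaction 0 of the 27 passed.

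**Figure D4:**
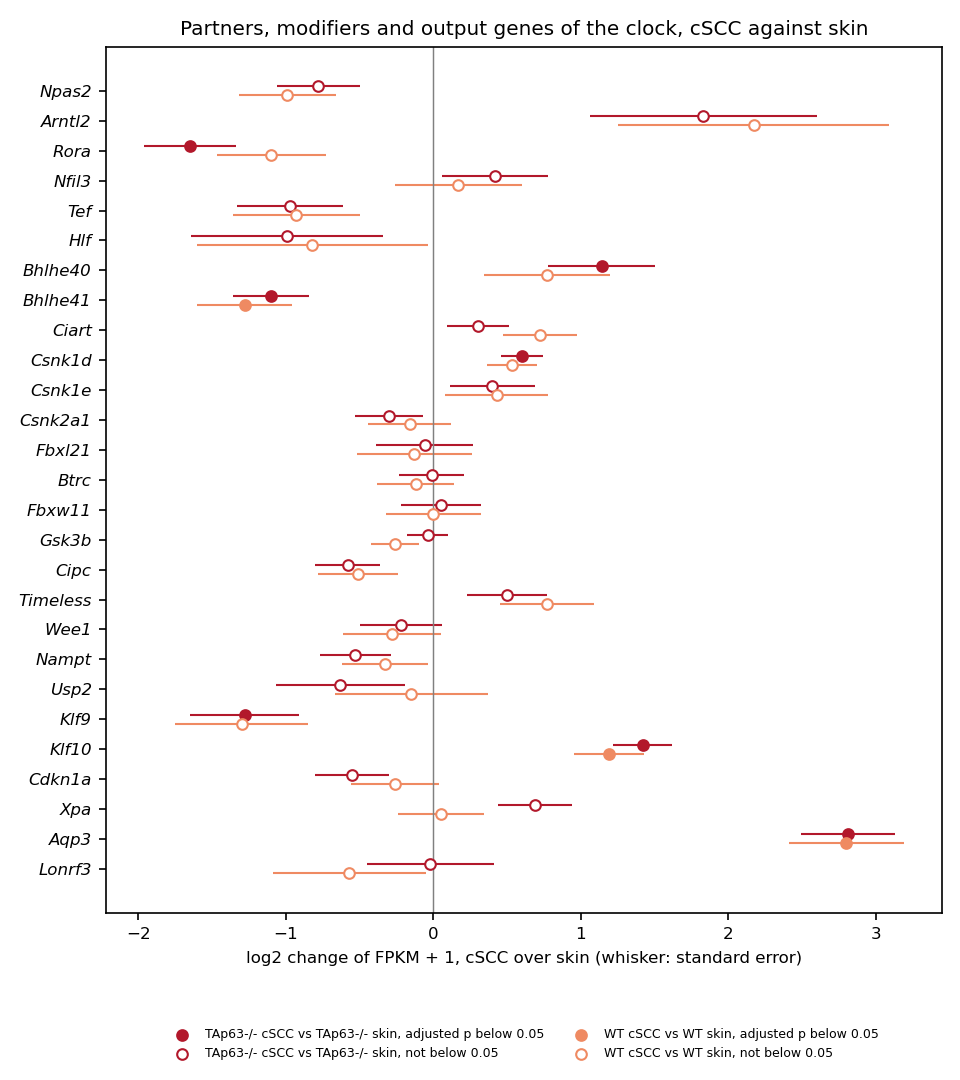
Log2 change of FPKM + 1, cSCC over skin of the same genotype, for the 27 further clock genes tested; whiskers are standard errors and filled points have an adjusted p below 0.05. Bhlhe41 lies on the left and Aqp3 and Klf10 on the right with filled points in both genotypes.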

How the data were processed

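RNA was extracted with the Ambion miRVANA kit and libraries were made with the Illumina TruSeq RNA kit, per the labels' protocols. TopHat2 2.0, Cufflinks 2.0 and the build mm10 are named in the submitters' processing notes. Values as deposited were taken as FPKM, a unit inferred from Cufflinks and the values. All libraries share 1 distribution, from which quantile normalization by the authors was inferred. Read depth is therefore unknown, and no counting interval is given. Sample titles give each library a genotype prefix and a number of its own, but the labels do not say whether these are animals, so p-values measure the spread between samples, which may be technical.

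Values of 272 symbols with several entries among 37924 were summed. Genes of at least 1 FPKM in at least 2 of 12 libraries (14752) were taken as log2(FPKM + 1), a scale that understates changes of low genes, and fitted with limma 3.58.1 (R 4.3.3) with a variance trend. Adjusted p-values are limma's with Benjamini-Hochberg adjustment, two-sided. Tumour-skin comparisons and the interaction used all 12 libraries, genotype comparisons the 6 of a tissue. Correlations used SciPy 1.17.1. The procedure was tested on simulated data. For limma these had independent genes and the same SD for a gene in every group. The real libraries need not have either, so that test does not vouch for the calls here. Members and gene lists were chosen with earlier results of these data known. Named genes were every member, further clock genes called in a comparison or with the 3 smallest p of their list, the 3 smallest p of the other lists, overlapping genes, and the 6 highest and 6 lowest r to Dbp and Arntl. Some genes that the rule names are left out here. Ciart and Cipc are in the table as Gm129 and 2310044G17Rik. Coordinates are those of the authors' file in mm10, with the start counted from 1. Alternatives covered the pseudocount, the filter, the scaling, the trend, the libraries fitted and each library left out.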

Additional observations from a re-analysis of the deposited data

Results flagged for a closer look

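Among 37 sets of 4 libraries examined, 1 held a library far from the other 3, and chance alone sets 1 library apart in about 1 of 20 such sets. Fbxl21, which encodes an F-box protein, was 1.74 FPKM in TAp63-/- cSCC replicate 1, against 0.174 to 0.426 FPKM in the other TAp63-/- tumours. That tumour is the 1 that read as male. WT cSCC replicate 1, which read as female, had 1.03 FPKM, and the skin libraries, which read as male, had 0.294 to 0.995 FPKM. The part of sex was not tested.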

How the results depend on the processing

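No paired analysis was possible because the labels give no replicate numbers that the groups share. Omissions that leave 1 WT tumour assume that it varies like the other groups. With 1 library left out, clock members called ran from 1 to 4 in TAp63-/- tumours against skin, 0 to 1 in WT, 4 to 6 in the average and 0 to 0 in each genotype comparison and the interaction. Further clock genes called ran from 4 to 9, 1 to 5 and 9 to 15 in those tumour-skin comparisons. Genes called ran from 2432 to 4446, 464 to 1907 and 3811 to 6041, and from 3 to 8 between skins, 0 to 11 between tumours and 1 to 15 for the interaction. Clock members called were 1 in TAp63-/- tumours with only the libraries of that comparison and 2 in WT tumours with no filter. Between skins 5 genes were called with a pseudocount of 0.1 and 0 with a muscle covariate. Between tumours 9 were called with no filter and 1 with all 12 libraries fitted. With a mean of at least 5 FPKM, under which fewer genes were tested, the interaction called 2 genes and the average 3651. How far the genes left out account for these counts was not tested.

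Per2 in TAp63-/- tumours turned to -0.01 with a pseudocount of 0.1, -0.02 with median-of-ratios scaling, -0.19 and -0.01 without TAp63-/- cSCC replicates 1 and 2, and -0.03 and -0.15 without TAp63-/- skin replicates 1 and 2. Over all omissions its log2 change ran from -0.19 to 0.23. Per1, with a range of -0.78 to 0.03, turned to 0.03 without TAp63-/- cSCC replicate 3 and 0.01 without TAp63-/- skin replicate 1. Without WT cSCC replicate 1, Per3 turned to -0.02 (range up to 0.22) and Dusp1 to 0.03 (range down to -1.72) in WT tumours. The r of Arntl and Dbp in cSCC turned to 0.082 without the 2 libraries farthest from the median of Arntl. The cause was not tested. In TAp63-/- tumours, median-of-ratios scaling ended the calls of Clock (adjusted p = 0.052) and Bhlhe40 (0.0515). Using no filter ended those of Cry2 (0.0604), Bhlhe40 (0.0665) and Klf9 (0.05), and fitting only the comparison's libraries those of Clock (0.0727), Cry2 (0.0979) and Bhlhe40 (0.0996). In WT tumours no filter ended those of Cry1 (0.0617) and Cry2 (0.0554) and the comparison's libraries alone that of Clock (0.059). In the average, no filter ended those of Arntl (0.0613), Nr1d1 (0.0887) and Timeless (0.0572) and a pseudocount of 0.1 that of Nr1d1 (0.0507). Depth is unknown, so how far it limits low genes such as Per2 is unknown too.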

Other observations

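Per1 and Per2 are also induced by glucocorticoids and by immediate-early signals, and genes of both kinds were counted. Of 8 glucocorticoid-induced genes, 2 fell and 0 rose in TAp63-/- cSCC against TAp63-/- skin (median log2 change -0.532), beside 14.2% lower, 13% higher and a median of 0.096 over all genes. In WT cSCC against WT skin 0 passed in limma (median -0.068), beside 11.4% of all genes and a median of 0.041. Tsc22d3, which encodes the leucine zipper protein GILZ, had 38.5, 57.6, 12.1 and 25.5 FPKM in TAp63-/- cSCC and 205.2, 125.1 and 113.8 FPKM in TAp63-/- skin (log2 change -2.26, adjusted p = 0.0109 by limma). The groups did not overlap, and the call was lost without TAp63-/- skin replicate 1 (adjusted p = 0.0515). Zbtb16 fell as well (-1.96, adjusted p = 0.0166), and its call was lost without the same library (adjusted p = 0.0778).

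Of 9 immediate-early genes, 1 rose and 1 fell in TAp63-/- tumours, beside the 13% and 14.2% of all genes, so neither share stood above them. Junb had 1.44 (adjusted p = 0.00145) and Egr2 -2.24 (adjusted p = 0.0121). In WT tumours 2 fell and 0 rose, beside 6.77% and 4.66% of all genes, Fosb with -3.06 (adjusted p = 0.00793) and Atf3 with -2.25 (adjusted p = 0.00891), both lost without WT cSCC replicate 1 (adjusted p = 0.094 and 0.07). In TAp63-/- skin against WT skin all 9 had negative log2 changes (median -0.814), beside 46.4% of all genes (median 0.016), and 0 passed in limma.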
